A study of Homo sapiens with 12 samples.

Results

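Transcripts of 10 genes encoding heat shock proteins of the cytosol and the mitochondria were followed through MAPK inhibitor (MAPKi) treatment of melanoma cells and the drug-free period after it. The genes were HSPA8, DNAJB1, DNAJA1, HSPH1, HSPA4, HSP90AA1, HSP90AB1, HSPD1, HSPE1 and HSPB1, taken by their symbols. They were 10 of the 44659 genes in the count table, and all 10 were among the 15916 genes with enough reads to be tested (on average 10 or more reads per library after scaling for depth). In the drug-treated cells HSPA8, HSPB1, DNAJB1 and DNAJA1 were higher than in control cells, while HSP90AB1, HSPD1 and HSPA4 were lower. After 9 days without drug, 9 of the 10 were higher than in control cells, where 18.2% of all tested genes were. Of these 9, the call of HSPB1 depended on the analysis.

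Heat shock proteins are chaperones, which bind proteins that are being made or have lost their shape and help them fold. In the cytosol, J-domain proteins (here DNAJB1 and DNAJA1) hand clients to HSP70 (HSPA8), HSP110 proteins (HSPH1, HSPA4) reset HSP70 by exchanging its nucleotide, and many signalling kinases, mutant BRAF among them, pass on to HSP90 (HSP90AA1, HSP90AB1). HSPD1 and HSPE1 form the folding chamber of the mitochondrial matrix, and HSPB1 is a small heat shock protein that holds unfolded proteins without using ATP. Several of these genes are targets of the transcription factor HSF1, the main switch of the heat shock response, and are used in all cells as well as in stressed ones.

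The cells were A375, an established human melanoma line with an activating BRAF mutation, and there were 3 libraries in each of 4 groups. Control cells (CC) had DMSO, the solvent, for 72 h. Treated cells (TC) were kept for 72 h with 500 nM vemurafenib, a BRAF inhibitor, and 500 nM cobimetinib, a MEK inhibitor. Persister cells (PC) had the same treatment followed by 2 days in drug-free medium, and recovered cells (RC) had it followed by 9 days in drug-free medium. All groups were of the same line, and cells were passaged as needed. No DMSO culture of the PC or RC harvest days was analysed here, so time in culture and recovery from the drug cannot be told apart. The study's methods describe an experimental batch for each harvest, after the drug and after 2 and 9 days without it. Batch and harvest day therefore cannot be told apart either. The labels do not say that the 3 libraries of a group came from separate cultures, so p-values measure the spread between these libraries, which may be technical.

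Total counts were between 37773389 and 55567097 per library, and a count of 3 was at most 0.0794 CPM. CPM are counts per 1000000 counts of the library after TMM scaling, which assumes that most genes are equal between libraries. As worded, that assumption was not met in TC, where 33.2% of tested genes passed as higher than in CC and 34.7% as lower. The labels say cytoplasmic RNA, with ribosomal RNA depleted. Of the melanocyte lineage genes, SOX10 (539 to 1067 CPM) and MITF (147 to 476 CPM) were high in every library, whereas MLANA and TYR were at most 1.94 and 5.93 CPM. Of the defining genes of other cell types, PTPRC, CD3E, KRT5, PECAM1, EPCAM and ALB were at most 0.694 CPM, and KRT14 reached 2.64 CPM in PC. As a check of drug action, all 7 listed genes downstream of ERK were lower in TC and in PC, with log2 fold changes in TC of -5.32 for DUSP6, -8.06 for SPRY4, -6.49 for ETV4 and -1.76 for CCND1. The CC libraries, the reference of most comparisons, were less alike than those of other groups. Over the tested genes the Pearson correlation of log2 CPM was 0.9853 to 0.9895 between CC libraries. Within the other groups it was 0.9897 to 0.9934. The difference shows in some of the values below. CC replicate 3 had the highest CC level of HSPA8, DNAJB1, DNAJA1, HSPH1 and HSPA4, and also of DUSP6 (77.6, 94.4 and 297 CPM in replicates 1 to 3). CC replicate 2 had the highest CC level of the other 5 genes.

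HSF1 binds heat shock elements, inverted repeats of the bases GAA and TTC. The 250 bases before every annotated start of a gene were searched for 3 alternating units with 2 bases between them, written GAANNTTCNNGAA or TTCNNGAANNTTC, and for 2 units, written GAANNTTC or TTCNNGAA. These forms cover both strands, and a match of 3 units contains matches of 2. In RefSeq promoter windows (GRCh38.p14), 3 units were found for 4 of the 10 genes, HSP90AA1, HSP90AB1, HSPA8 and HSPD1, against 0.557% of 27305 genes. With HSPB1, DNAJB1 and DNAJA1, which had 2 units, 7 of the 10 held at least 2 units, against 13.96% of all genes, and neither form was found for HSPH1, HSPA4 or HSPE1. The stretches below hold the matches with 3 units (of 2 overlapping ones in HSPD1, the one farther from the start) and the match nearest to the start in DNAJB1, 5′ to 3′ on the strand of the gene with the matched bases in capitals. They are shown because these genes hold a form of the motif, with 2 units in DNAJB1, and did not share a direction in TC and PC. In RC all of them were higher than in CC.
HSP90AA1 (chr14:102087106-102087146, minus strand): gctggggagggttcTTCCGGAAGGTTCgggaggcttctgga
HSP90AB1 (chr6:44247764-44247804, plus strand): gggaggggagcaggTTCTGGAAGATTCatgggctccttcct
HSP90AB1 (chr6:44247817-44247857, plus strand): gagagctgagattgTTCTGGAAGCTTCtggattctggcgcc
HSPA8 (chr11:123062340-123062380, minus strand): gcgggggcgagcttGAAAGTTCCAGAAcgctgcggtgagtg
HSPA8 (chr11:123062165-123062205, minus strand): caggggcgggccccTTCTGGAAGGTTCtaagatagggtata
HSPD1 (chr2:197500059-197500090, minus strand): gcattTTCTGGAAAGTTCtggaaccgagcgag
DNAJB1 (chr19:14518423-14518458, minus strand): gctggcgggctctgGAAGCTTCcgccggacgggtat
HSPD1 and HSPE1 stand head to head on chromosome 2, and the window searched for HSPE1 began at position 197500129, past the matches of HSPD1. The GENCODE start of HSPE1, 197500140, lies near the beginning of that window. The HSPD1 matches lie before this start, in bases that were not searched for HSPE1. A match is a description of the letters in a window and not of a bound site.

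**Figure D1:**
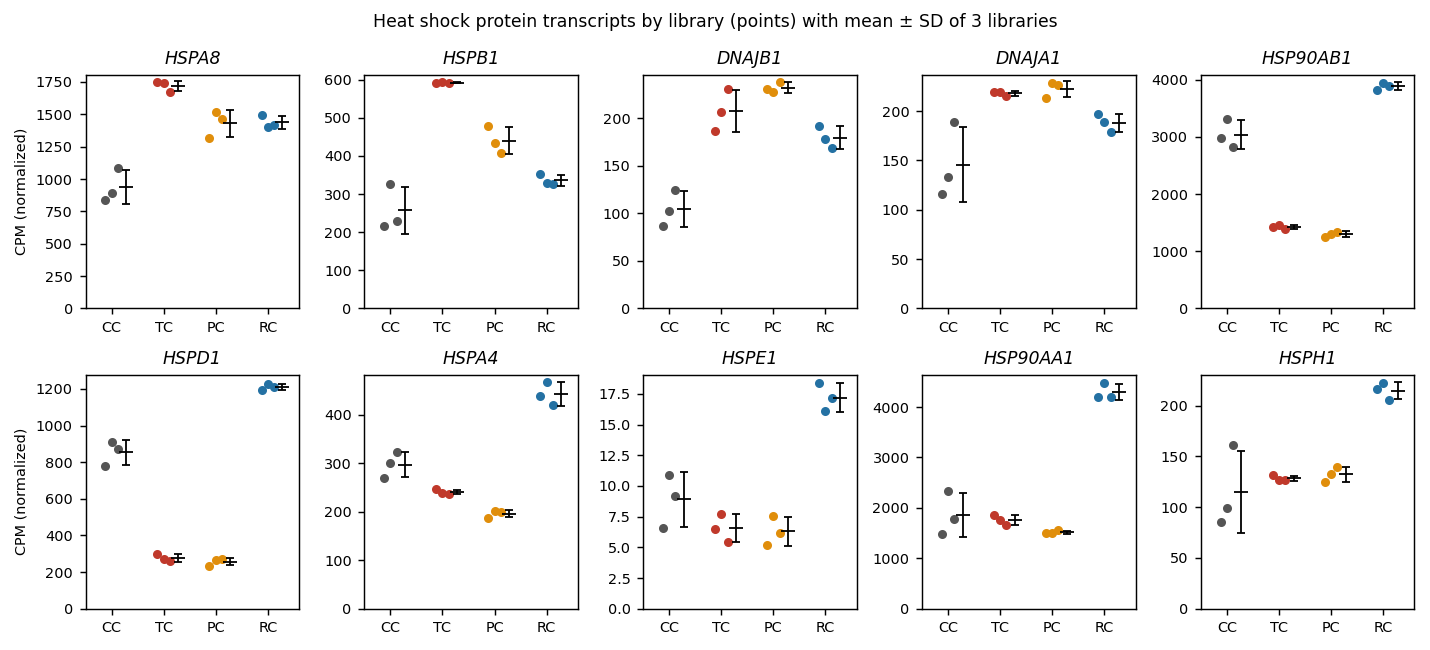
CPM (y axis, from 0, a scale for each gene) of the 10 genes in each library (points) of CC, TC, PC and RC, with the mean and SD of 3 libraries. HSPA8 and HSPB1 stand highest in TC, HSP90AB1 and HSPD1 fall in TC and PC and stand highest in RC, and HSP90AA1, HSPH1 and HSPE1 lie above all other groups in RC.

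HSPA8 (chromosome 11, 123057489 to 123063230, minus strand, GRCh38), the constitutive HSP70 of the cytosol, was higher in every group after drug than in CC. Replicates 1 to 3 of CC had 839.6, 895 and 1086 CPM, those of TC 1746, 1740.1 and 1674, those of PC 1316, 1515 and 1460.0 and those of RC 1492, 1400.0 and 1419. The 3 groups after drug lay above all CC libraries, and TC lay above PC and RC, which overlapped. The log2 fold change against CC was 0.87 (adjusted p 2.57e-06, SE 0.09) in TC, 0.61 (adjusted p 5.56e-05, SE 0.09) in PC and 0.61 (adjusted p 0.000288, SE 0.09) in RC, from edgeR's quasi-likelihood test with Benjamini-Hochberg adjustment over all tested genes. The rise in TC, 1.83-fold, passed a second test against a change of 1.5-fold, and those in PC and RC did not. From TC to PC the difference was -0.27 (adjusted p 0.0443), and from PC to RC it was 0.01 (adjusted p 0.952). The call from TC to PC held in 7 of 19 alternative analyses and was lost when any 1 library of TC, PC or RC was left out (adjusted p 0.0582 to 0.15). In bulk RNA, a change in the share of cells that express a gene and a change in RNA per cell cannot be told apart, here and in all values below.

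DNAJB1 (chromosome 19, 14514769 to 14560391, minus strand), a J-domain partner of HSP70 and a typical gene of the heat shock response, rose with HSPA8. By library, CC replicates 1 to 3 had 86.7, 102 and 125 CPM, TC 186, 207 and 231, PC 231, 227 and 238 and RC 192, 178 and 168. Every library after drug was above every CC library, and PC overlapped with TC. The gene was 1.99-fold higher in TC, a log2 fold change of 0.99 (adjusted p 1.12e-05, SE 0.12), and 2.22-fold higher in PC, one of 1.15 (adjusted p 2.86e-06, SE 0.12), both beyond 1.5-fold. In RC it was still higher than in CC by 0.78 (adjusted p 0.000407, SE 0.12) but had fallen from PC, with a log2 fold change of -0.37 (adjusted p 0.0131).

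DNAJA1 (chromosome 9, 33025273 to 33039907, plus strand), the other J-domain protein, has a farnesyl anchor and works with HSPA8 on newly made and imported proteins. The 12 libraries had 116, 133 and 189 CPM (CC replicates 1 to 3), 219.8, 219 and 215 (TC), 213, 228 and 226 (PC) and 197, 189 and 179 CPM (RC). TC and PC lay together above all libraries of CC and RC, and the highest CC library lay within the range of RC. Against CC the log2 fold change was 0.58 (adjusted p 0.00233, SE 0.14) in TC and 0.61 (adjusted p 0.00157, SE 0.14) in PC. In RC it was 0.37 (adjusted p 0.0502, SE 0.14), just short of the threshold, and past it in 6 of 19 alternatives, among them the analysis without CC replicate 3, where it was 0.60 (adjusted p 0.000115). From PC to RC it changed by -0.24 (adjusted p 0.131), and without CC replicate 3 the change was -0.25 (adjusted p 0.00375).

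HSPH1 (chromosome 13, 31134973 to 31162388, minus strand), a stress-inducible HSP110, was highest in RC. Levels stood at 85.0, 99.2 and 161 CPM (CC replicates 1 to 3), 131, 127 and 127 (TC), 125, 133 and 139.9 (PC) and 216, 222 and 206 CPM (RC). The CC libraries spanned all of TC and PC, and RC lay above everything else. RC was higher than CC by a log2 fold change of 0.90 (adjusted p 0.0019, SE 0.17) and higher than PC by 0.70 (adjusted p 0.00339). Against CC the differences in TC, 0.16 (adjusted p 0.438), and in PC, 0.20 (adjusted p 0.317), did not pass, and they turned on CC replicate 3. Without it they were 0.49 (adjusted p 0.000157) and 0.54 (adjusted p 7.15e-05).

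HSPA4 (chromosome 5, 133052013 to 133106449, plus strand), the HSP110 that is made without stress, moved opposite to HSPA8 during drug exposure. By library, CC replicates 1 to 3 had 269, 299 and 322 CPM, TC 246, 238 and 237, PC 187, 202 and 199 and RC 438, 468 and 419. The 4 groups did not overlap and ran, from low to high, PC, TC, CC and RC. The log2 fold change against CC was -0.31 (adjusted p 0.00222, SE 0.07) in TC, -0.60 (adjusted p 1.01e-05, SE 0.07) in PC and 0.57 (adjusted p 0.000116, SE 0.07) in RC. The fall from TC to PC, -0.29 (adjusted p 0.0104), and the rise from PC to RC, 1.17 (adjusted p 2.71e-08), both passed, the latter beyond 1.5-fold.

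HSP90AB1 (chromosome 6, 44246166 to 44253888, plus strand), the constitutive HSP90 of the cytosol, fell in drug and rose above control in recovery. Replicates 1 to 3 of CC held 2985, 3315 and 2814 CPM, those of TC 1419, 1453 and 1390.3, those of PC 1246, 1310.0 and 1341 and those of RC 3813, 3949 and 3893. Again the 4 groups did not overlap, in the order PC, TC, CC and RC. The gene was 2.14-fold lower in TC than in CC, a log2 fold change of -1.10 (adjusted p 1.52e-08, SE 0.06), and 2.34-fold lower in PC, one of -1.23 (adjusted p 6.18e-09, SE 0.06). In RC it was higher than in CC by 0.35 (adjusted p 0.000915, SE 0.06) and higher than in PC by 1.58 (adjusted p 8.81e-10). From TC to PC it changed by -0.13 (adjusted p 0.152), which did not pass.

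HSP90AA1 (chromosome 14, 102080742 to 102139699, minus strand), the stress-inducible HSP90, was far higher in RC than in any other group. Measured levels were 1477, 2328 and 1778 CPM (CC replicates 1 to 3), 1859, 1760.2 and 1653 (TC), 1494, 1501 and 1553 (PC) and 4208, 4486 and 4194 CPM (RC). CC, TC and PC overlapped, with CC replicate 2 the highest of the 9 libraries, and RC lay above them. In RC it was 2.31-fold higher than in CC, a log2 fold change of 1.21 (adjusted p 4.58e-05, SE 0.13), the one gene of the 10 past the test against 1.5-fold in that comparison. From PC to RC it rose by 1.503 (adjusted p 4.32e-07). The value in TC was -0.08 (adjusted p 0.573), and without CC replicate 2 it was 0.11 (adjusted p 0.237). The value in PC, -0.30 (adjusted p 0.0497), was past the threshold in 3 of 19 alternatives and was lost when any 1 library but CC replicate 1 was left out. Without CC replicate 2 it was -0.10 (adjusted p 0.271).

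HSPD1 (chromosome 2, 197486584 to 197516737, minus strand), the mitochondrial HSP60, had the largest fall of the 10 genes in TC and in PC. Library by library, CC replicates 1 to 3 had 779, 911 and 875 CPM, TC 300.4, 271 and 262, PC 235, 267 and 271 and RC 1195, 1227 and 1212. TC and PC overlapped with each other far below CC, and all RC libraries were above all CC libraries. It was 3.08-fold lower in TC, a log2 fold change of -1.62 (adjusted p 4.68e-09, SE 0.08), and 3.32-fold lower in PC, one of -1.73 (adjusted p 2.91e-09, SE 0.08). RC was higher than CC by 0.50 (adjusted p 0.000459, SE 0.08) and higher than PC by 2.23 (adjusted p 4.4e-10), a 4.70-fold difference.

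HSPE1 (chromosome 2, 197500140 to 197503449, plus strand), the HSP10 lid of the HSPD1 chamber, had the lowest level per length of the 10 genes in all groups. Its levels were 6.56, 10.9 and 9.21 CPM (CC replicates 1 to 3), 6.50, 7.72 and 5.43 (TC), 5.23, 7.58 and 6.15 (PC) and 18.4, 16.1 and 17.2 CPM (RC). CC, TC and PC overlapped, and RC was above all of them. RC was higher than CC by a log2 fold change of 0.95 (adjusted p 0.00252, SE 0.19) and higher than PC by 1.44 (adjusted p 3.13e-05). The value in TC was -0.45 (adjusted p 0.0599), and it passed without CC replicate 1, at -0.62 (adjusted p 0.00968), or TC replicate 2, at -0.58 (adjusted p 0.0348). The value in PC, -0.49 (adjusted p 0.0395), was past the threshold in 9 of 19 alternatives. It was lost without CC replicate 2, CC replicate 3, TC replicate 1, PC replicate 1, PC replicate 3 or any 1 of the RC libraries, and was -0.32 (adjusted p 0.174) without CC replicate 2. In GENCODE v44, 34.5% of the exon bases of the main HSPE1 transcript also belong to the read-through gene HSPE1-MOB4, and 26 pseudogenes are named after HSPE1, the most of the 10 genes. HSPD1 has 18 such pseudogenes and HSPA8 has 17. How reads that fit several places were counted is not given in the sources used here, so the HSPE1 level is uncertain, and those of HSPD1 and HSPA8 may be affected too.

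HSPB1 (chromosome 7, 76302673 to 76304295, plus strand), also called HSP27, had the largest rise of the 10 genes in TC. Levels were 216, 328 and 228 CPM (CC replicates 1 to 3), 592, 594 and 591 (TC), 478, 433 and 409 (PC) and 352, 329 and 326 CPM (RC). The TC libraries were nearly equal and above all others, PC lay between TC and RC, and RC overlapped with the highest CC library. The gene was 2.30-fold higher in TC than in CC, a log2 fold change of 1.20 (adjusted p 4.4e-06, SE 0.13), beyond 1.5-fold, and higher in PC by 0.77 (adjusted p 0.000168, SE 0.13). From TC to PC it changed by -0.43 (adjusted p 0.0286) and from PC to RC by -0.39 (adjusted p 0.0161). The value in RC, 0.38 (adjusted p 0.0337), was past the threshold in 13 of 19 alternatives. It was lost without CC replicate 1, CC replicate 3 or any 1 of the RC libraries, and was 0.27 (adjusted p 0.129) without CC replicate 1. The call from TC to PC was lost when any 1 of the TC libraries, PC replicate 2 or PC replicate 3 was left out (adjusted p 0.057 to 0.106). The call from PC to RC was lost without PC replicate 1, where the change was -0.33 (adjusted p 0.0637).

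**Figure D2:**
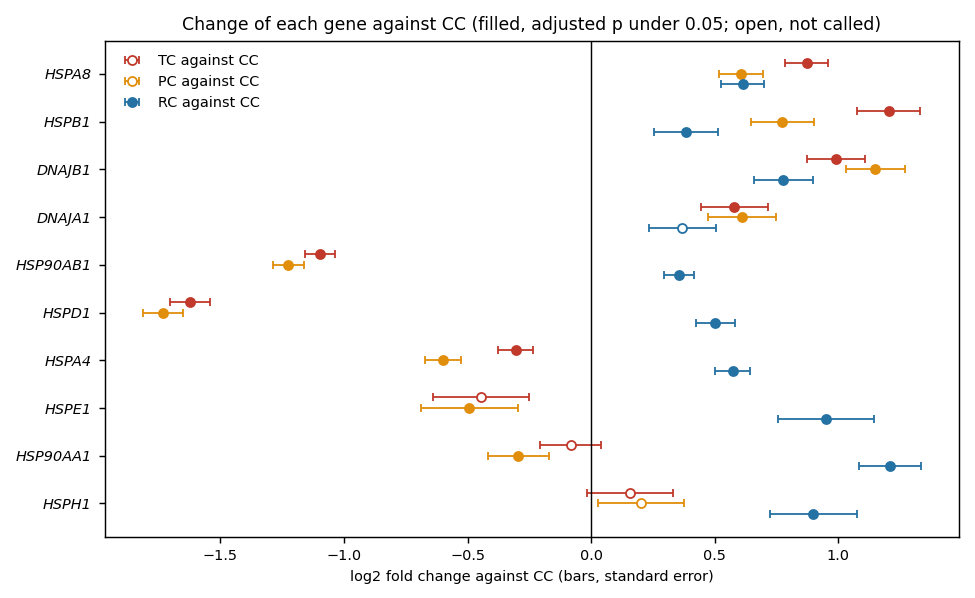
Log2 fold change against CC (x axis) of each gene in TC, PC and RC, with bars of 1 standard error. Filled points had an adjusted p under 0.05 and open points did not. HSPA8, HSPB1, DNAJB1 and DNAJA1 lie right of 0 in all 3 groups, and HSP90AB1, HSPD1, HSPA4 and HSPE1 lie left of 0 in TC and PC and right of 0 in RC.

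What 72 h of MAPKi did to these transcripts was asked by comparing TC with CC. Of the 10 genes, 4 were higher, where 33.2% of all tested genes were, and 3 were lower, where 34.7% were. Beyond 1.5-fold, 3 were higher (HSPA8, HSPB1 and DNAJB1, beside 16.1% of all genes) and 2 were lower (HSP90AB1 and HSPD1, beside 19.3%). These shares are near those of all genes, and the median log2 fold change of the 10 was 0.04 beside -0.02 over all tested genes. The 10 genes did not move in a common direction.

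In PC, 2 days after the drug was removed, 4 of the 10 genes were higher than in CC (33.2% of all tested genes) and 5 were lower (35.9%). The higher genes were HSPA8, HSPB1, DNAJB1 and DNAJA1, and the lower ones were HSP90AB1, HSPD1 and HSPA4 with HSP90AA1 and HSPE1, whose calls depended on the analysis. With a library left out, 3 to 5 were lower. Beyond 1.5-fold, DNAJB1 was higher (17.2% of all genes) and HSP90AB1 and HSPD1 were lower (19.9%), and the 1 higher gene became 2 without CC replicate 2 and 3 without CC replicate 3. Compared directly with TC, none of the 10 was higher in PC in edgeR (12.2% of all genes; 0 at an unadjusted p under 0.05, and 0 in DESeq2) and 3 were lower, HSPA8, HSPA4 and HSPB1 (12.5%). With any 1 library of TC left out, or PC replicate 2 or 3, HSPA4 alone was lower. None of the 3 was beyond 1.5-fold, where 1.15% of all genes were lower. In 5 of the 10, HSPA8, HSPA4, HSPB1, HSP90AA1 and HSP90AB1, every PC library was below every TC library (23.4% of all genes).

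In RC, 9 of the 10 genes were higher than in CC (18.2% of all tested genes) and none was lower in edgeR (19.1%), also at an unadjusted p under 0.05 and in DESeq2, since all 10 log2 fold changes were above 0. The count of 9 depended on the analysis. The call of HSPB1 was lost in 6 of 19 alternatives, and DNAJA1, the gene not called, gained a call in 6. The median of the 10 was 0.59 beside 0.00 over all tested genes. In 8 of the 10, all but HSPB1 and DNAJA1, every RC library was above every CC library (23.7% of all genes). Beyond 1.5-fold there was 1, HSP90AA1 (1.35%), with 2 such genes without CC replicate 2 and 3 without CC replicate 3. The comparisons of TC, PC and RC with CC share the CC libraries and are not independent of each other.

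From PC to RC, 6 of the 10 genes rose (35.7% of all tested genes) and 2 fell (34.2%). The 6 were HSP90AA1, HSP90AB1, HSPH1, HSPA4, HSPD1 and HSPE1, and all but HSPH1 rose beyond 1.5-fold (20.2% of all genes). The 2 that fell were HSPB1 and DNAJB1. Without PC replicate 1 DNAJB1 alone fell, and without CC replicate 3 DNAJA1 fell as well.

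The 10 genes together took 0.759% ± 0.0743 of the counts in CC (SD, n = 3), 0.649% ± 0.0301 in TC, 0.573% ± 0.0112 in PC and 1.24% ± 0.0223 in RC. The groups did not overlap and ran, from low to high, PC, TC, CC and RC.

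**Figure D3:**
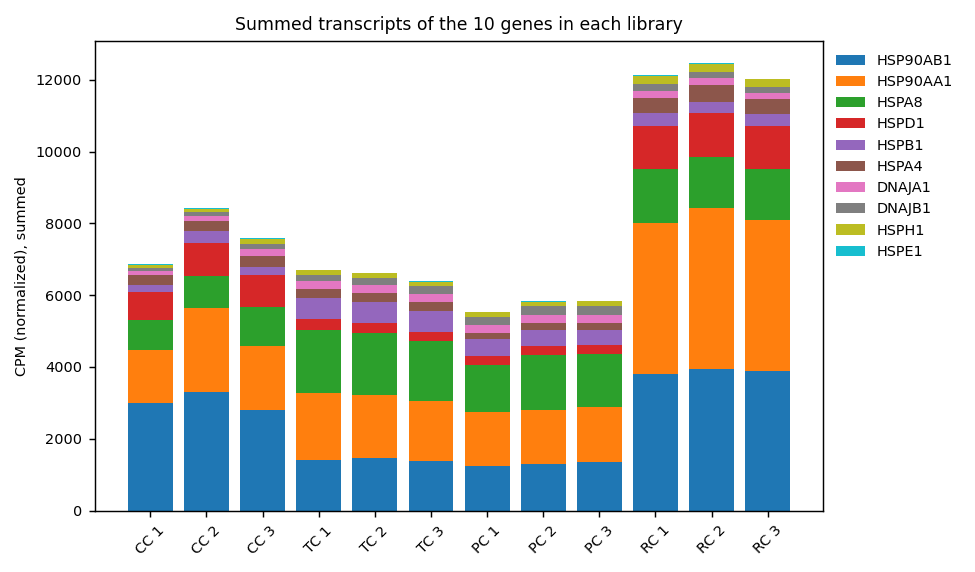
CPM of the 10 genes stacked for each library (x axis, CC, TC, PC and RC replicates 1 to 3). The stacks are lowest in PC and highest in RC, where HSP90AA1 and HSP90AB1 are the largest blocks.

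Levels of different genes were compared as CPM per kb of the main transcript. In CC the order was HSP90AB1 (1189), HSP90AA1 (576), HSPA8 (415), HSPD1 (381), HSPB1 (331), DNAJA1 (62.9), HSPA4 (62.2), DNAJB1 (46.7), HSPH1 (21.9) and HSPE1 (16.0). HSP90AB1 was above all others in every CC library, while from HSP90AA1 to HSPB1 the ranges of neighbours overlapped, as did those of DNAJA1 and HSPA4 and of HSPH1 and HSPE1. In TC the order began with HSPB1 (762 CPM per kb) and HSPA8 (759.8), whose ranges overlapped, before HSP90AB1 (556) and HSP90AA1 (544), which overlapped as well. In PC it began with HSPA8 (632 CPM per kb) and HSPB1 (566), which overlapped, and in RC with HSP90AB1 (1521) and HSP90AA1 (1331), which did not.

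Ratios of counts between partner genes in the same library do not depend on the scaling of libraries. The ratio of HSP90AA1 to HSP90AB1 was 0.495, 0.702 and 0.632 for CC replicates 1 to 3, 1.31, 1.21 and 1.19 for TC, 1.20, 1.15 and 1.16 for PC and 1.10, 1.14 and 1.08 for RC. It was below 1 in each CC library and above 1 in each of the other 9. These counts are not scaled for length, and the main transcript of HSP90AA1 has 3228 bases beside 2555 of HSP90AB1. Per kb, the mean of HSP90AA1 was below that of HSP90AB1 in each group. In TC the means were 544 and 556 CPM per kb, and in PC 470 and 508. On the log2 scale the ratio of counts differed from CC by 1.03 in TC, 0.95 in PC and 0.87 in RC. The shift in TC and PC came with a fall of HSP90AB1, and the shift in RC with a rise of HSP90AA1. The ratio of HSPD1 to HSPE1 was 99.0 ± 18.0 in CC (SD, n = 3), 43.2 ± 7.02 in TC, 41.4 ± 5.38 in PC and 70.7 ± 5.68 in RC, with the uncertainty of the HSPE1 count and possibly of the HSPD1 count. The ratio of DNAJB1 to DNAJA1 was 0.727 ± 0.0575 in CC, 0.956 ± 0.114 in TC, 1.04 ± 0.0453 in PC and 0.953 ± 0.0200 in RC. In an exact permutation test over all 4 groups (369600 assignments, by the between-group sum of squares, smallest possible p 6.49e-05), p was 0.000195 for HSP90AA1 to HSP90AB1 (0.000584 adjusted over the 3 ratios), 0.000455 for HSPD1 to HSPE1 (adjusted 0.000682) and 0.00591 for DNAJB1 to DNAJA1 (adjusted 0.00591). For each group against CC the two-sided exact permutation p was 0.1, the smallest that 3 libraries against 3 allow.

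**Figure D4:**
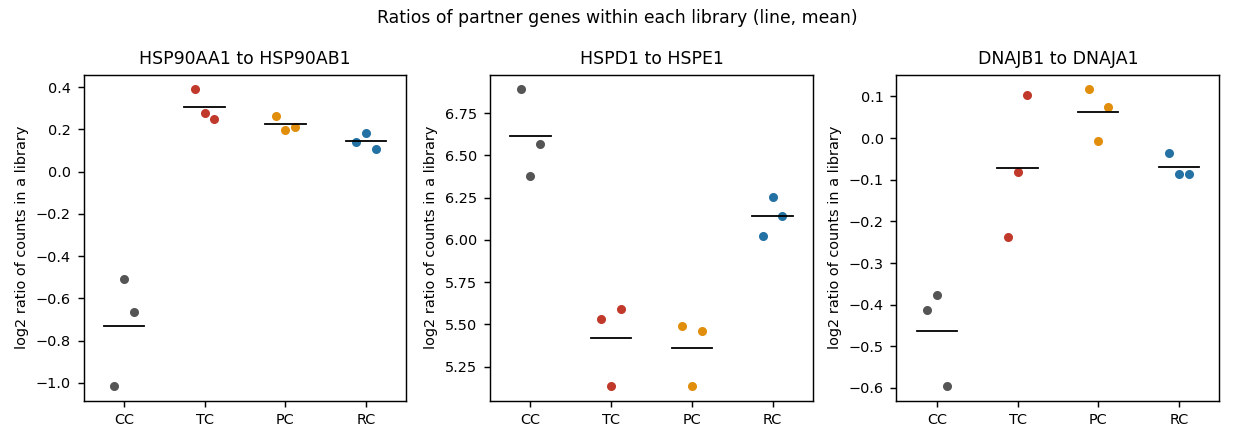
Log2 ratio of counts (y axis) of HSP90AA1 to HSP90AB1, HSPD1 to HSPE1 and DNAJB1 to DNAJA1 in each library (points), by group, with a line at the mean. HSP90AA1 to HSP90AB1 is below 0 in CC and above 0 in TC, PC and RC, in counts not scaled for transcript length.

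Over the 12 libraries the Pearson correlation of log2 CPM between genes of the 10 was highest for HSP90AB1 and HSPD1 (0.996) and lowest for HSPD1 and HSPB1 (-0.755). DNAJB1 and DNAJA1 had one of 0.934, HSPA8 and DNAJA1 one of 0.892, and HSP90AA1 and HSPE1 one of 0.945. Among 11905 genes with 100 or more normalized counts on average, the gene most like each of the 10 by this measure was DDX54 (0.999) for HSP90AB1, TIMM50 (0.998) for HSPD1, XRCC5 (0.995) for HSPA4, MAPRE1 (0.988) for DNAJB1 and OTUB1 (0.983) for HSPB1. It was ZNF326 (0.981) for HSPH1, PSMC3 (0.977) for HSP90AA1, USP39 (0.975) for HSPE1, MFSD4B (0.975) for HSPA8 and SS18 (0.974) for DNAJA1. These correlations describe 12 libraries that fall into 4 groups, so the points are not independent conditions.

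Other chaperone genes were taken from 8 lists with 86 genes, of which 76 were tested. Some of the tested genes had uneven counts within a group, so their values are uncertain. PFDN5 had 44, 290 and 1165 reads in PC replicates 1 to 3, and CHORDC1 had 29, 556 and 39 in CC. BAG6 had 280, 21 and 23 in RC. CCT8 had 0 to 5 reads per library and was not tested. In TC 19 of the 76 were higher and 40 were lower (median log2 fold change -0.35), against 33.2% and 34.7% of all tested genes. In PC 19 were higher and 44 lower (median -0.31), against 33.2% and 35.9%, and in RC 32 and 9 (median 0.24), against 18.2% and 19.1%. Of the co-chaperones of HSP90, 8 of 15 were lower and 2 higher in TC (all genes 34.7% and 33.2%), and 10 were higher in RC (all genes 18.2%). FKBP4, an immunophilin that binds HSP90, had log2 fold changes of -1.20, -1.07 and 0.55 in TC, PC and RC (adjusted p at most 7.92e-05). STIP1, which joins HSP70 to HSP90, was -0.03 (adjusted p 0.794) in TC, -0.06 (adjusted p 0.526) in PC and 1.000 (adjusted p 2.08e-05) in RC, with -0.17 (adjusted p 0.0466) in PC without CC replicate 1. For AHSA1, which speeds up the HSP90 ATPase, the values were -0.06 (adjusted p 0.402), -0.05 (adjusted p 0.506) and 0.33 (adjusted p 0.0016). For the TRiC chaperonin of the cytosol and its helper prefoldin, 10 of 12 were lower and 1 higher in TC, and 8 were higher in RC, beside the same shares of all genes. The TRiC subunit CCT4 had -1.005 (adjusted p 3.13e-07) in TC and 0.31 (adjusted p 0.00967) in RC, and TCP1 had -0.51 (adjusted p 4.37e-05) and 0.72 (adjusted p 3.59e-05).

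Among other mitochondrial chaperones and proteases, 10 of 15 were lower and 3 higher in TC (all genes 34.7% and 33.2%), and 11 were lower and 3 higher in PC (all genes 35.9% and 33.2%), where HSPD1 was lower. In RC 1 was lower, LONP1, and the others did not pass (all genes 19.1% lower and 18.2% higher). TRAP1, the mitochondrial HSP90, had -1.88 (adjusted p 3.74e-10) in TC, -2.35 (adjusted p 7.77e-11) in PC and -0.07 (adjusted p 0.425) in RC. HSPA9, the mitochondrial HSP70, had -1.18 (adjusted p 8.1e-07), -1.53 (adjusted p 8.22e-08) and -0.13 (adjusted p 0.347), the last being -0.25 (adjusted p 0.0263) without CC replicate 2. The protease LONP1 had -1.29 (adjusted p 1.15e-07), -1.61 (adjusted p 1.8e-08) and -0.42 (adjusted p 0.00369).

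Of the other small heat shock proteins, 4 of 6 were higher in TC and in PC (all genes 33.2% in each), as HSPB1 was, and 1 was lower. CRYAB, or alpha-B crystallin, had 5.69 ± 1.10 CPM in CC, 129 ± 36.8 in TC, 350.1 ± 19.9 in PC and 3.48 ± 0.0697 in RC (SD, n = 3), log2 fold changes of 4.51 (adjusted p 2.38e-09), 5.95 (adjusted p 4.42e-10) and -0.70 (adjusted p 0.0212). The call in RC was lost in 4 of 19 alternatives, without CC replicate 1, where it was -0.58 (adjusted p 0.0867), and without CC replicate 2 or RC replicate 1 or 2. HSPB8 had 1.09 (adjusted p 1.45e-05) in TC, 1.68 (adjusted p 3.26e-07) in PC and 0.73 (adjusted p 0.00134) in RC. Of the other J-domain proteins, 6 of 13 were higher and 5 lower in TC, near the shares of all genes (33.2% and 34.7%). DNAJB4 had 2.40 (adjusted p 7.61e-08) in TC, 2.26 (adjusted p 1.15e-07) in PC and 0.89 (adjusted p 0.00115) in RC.

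Of the other cytosolic HSP70 and HSP110 genes, 3 of 4 tested were lower in TC and all 4 in PC (all genes 34.7% and 35.9%), where HSPA8 was higher. HSPA4L, an HSP110 close to HSPA4, had -2.66 (adjusted p 2.01e-07) in TC. HSPA6, a strictly stress-induced HSP70, had 4.49 ± 0.111 CPM in CC and 0.257 ± 0.0957 in PC, a log2 fold change of -4.13 (adjusted p 1.21e-07). In TC the value of HSPA6 was -0.92 (adjusted p 0.00602). In RC HSPA4L had -0.61 (adjusted p 0.0237) and HSPA6 had -0.92 (adjusted p 0.0123), calls lost in 3 and 1 of 19 alternatives. The main inducible HSP70, encoded by the near-identical genes HSPA1A and HSPA1B, is not among these 4 and was not tested. Over 99% of its reads were listed under 8 numbered copies of the gene names, and summed over these and the plain names it came to 2.204 ± 0.313 CPM in CC, 4.34 ± 0.513 in TC, 3.73 ± 0.249 in PC and 3.94 ± 0.685 in RC, a level that is uncertain, and each CC library was below each of the others. Among exchange factors of HSP70, BAG3, another typical gene of the heat shock response, had -0.94 (adjusted p 1.43e-06) in TC, -1.58 (adjusted p 1.69e-08) in PC and 0.34 (adjusted p 0.0103) in RC, the opposite of DNAJB1 in TC and PC. Across the list, 2 of 8 were higher and 2 lower in TC (all genes 33.2% and 34.7%), and 5 and 2 in RC (18.2% and 19.1%), where BAG2 had 0.51 (adjusted p 0.000295). Of the heat shock factor genes, HSF2 had -0.47 (adjusted p 0.00308) in TC, and HSBP1, an inhibitor of HSF1, had 0.35 (adjusted p 0.00121) in TC and 0.27 (adjusted p 0.015) in RC. The RC call of HSBP1 was lost with only the 2 groups compared, at 0.27 (adjusted p 0.0617), and without RC replicate 2, at 0.26 (adjusted p 0.0529).

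**Figure D5:**
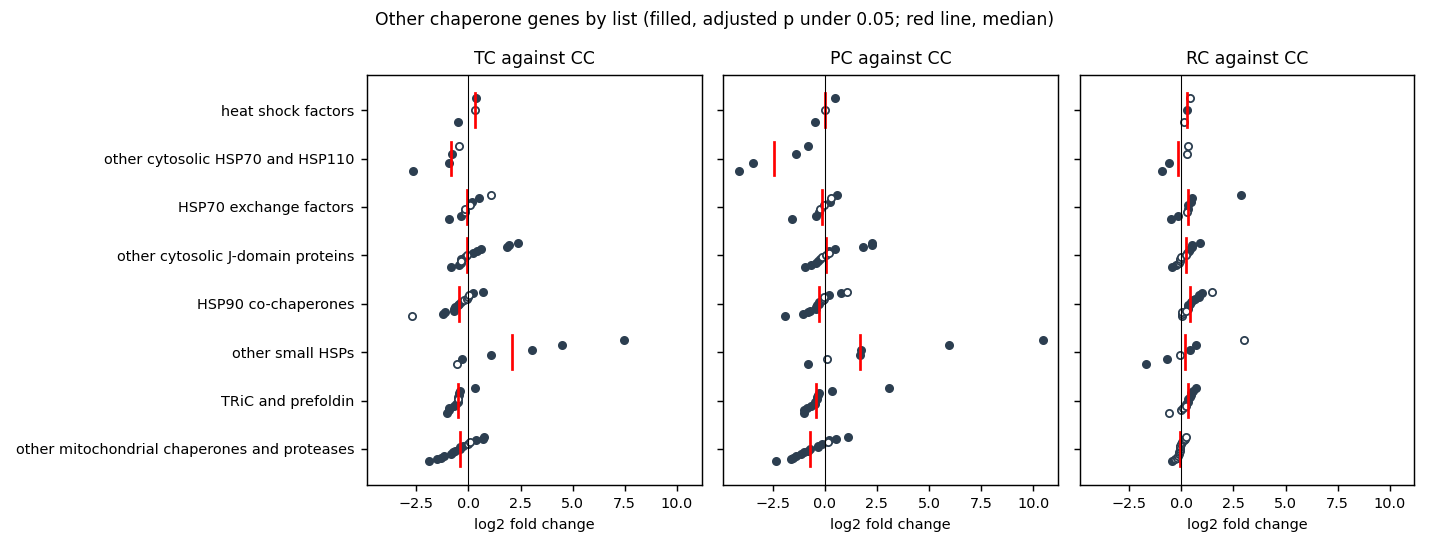
Log2 fold change against CC (x axis) of 76 other chaperone genes by list in TC, PC and RC. Points are genes, filled where the adjusted p was under 0.05, and red lines are medians. Lists of HSP90 co-chaperones, TRiC and mitochondrial chaperones lie mostly left of 0 in TC and PC, and small heat shock proteins mostly right of it.

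Genes whose windows hold the heat shock motif shown above did not share a direction in TC. Of the 4 with 3 units, HSPA8 was higher in TC, HSP90AB1 and HSPD1 were lower and HSP90AA1 did not pass, and all 4 were higher in RC. The 3 with 2 units, HSPB1, DNAJB1 and DNAJA1, were higher in TC and in PC. In RC DNAJB1 was higher, HSPB1 was called with the call lost in 6 of 19 alternatives, and DNAJA1 did not pass (adjusted p 0.0502). Of the 3 with neither in the windows searched, HSPA4 was lower in TC and HSPH1 and HSPE1 did not pass, and all 3 were higher in RC. For HSPE1 the window left out the HSPD1 matches, which lie before its GENCODE start.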

How the data were processed

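Processed data were 1 table of raw read counts per gene for 12 RNA-seq libraries (A375, 4 groups of 3). The deposited counts were made by the authors, per the labels and the study's methods, by trimming with fastp 0.20.1, aligning to GRCh38.p13 with HISAT2 2.2.1 and counting with HTSeq 0.13.5. Strand setting, overlap mode and handling of reads with several matches are not given in the sources used here. The labels name cytoplasmic RNA and the methods describe total RNA. Genes with a mean scaled count of at least 10 (15916 of 44659) were fitted in edgeR 4.0.16 (R 4.3.3, TMM factors 0.965 to 1.02, 1 mean per group, common dispersion as a biological coefficient of variation 0.182, 8 residual degrees of freedom). Calls used glmQLFTest (two-sided, Benjamini-Hochberg adjusted p under 0.05) and glmTreat at 1.5-fold. Standard errors were derived from the F statistic. The floor of 3 counts covers counting error only. Libraries of a group differed by more than counting noise, so none was a duplicate. The procedure was tested on simulated data. Positions came from GENCODE v44 and promoter windows from RefSeq, matched by symbol for all 10 genes. Correlations used genes whose normalized counts averaged 100 or more.

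The 10 genes and the lists were chosen with earlier results of these data known. Named list genes were a fixed set (HSF1, HSF2, HSPA1A, HSPA1B, HSPA9, TRAP1, BAG3, STIP1, AHSA1, CRYAB) and, in each list, the called gene with the largest change in TC and in RC among those whose normalized counts averaged 100 or more. DUSP6, SPRY4, ETV4 and CCND1 checked drug action. Replicate numbers were checked for pairing, and alternatives were other scalings (RLE, library totals), a summed count of at least 2, a replicate block, only the groups compared, copies added to a gene, DESeq2 1.42.0 and each library left out.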

Additional observations from a re-analysis of the deposited data

Results flagged for a closer look

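In 5 of the 10 genes the change against CC was called lower in PC and higher in RC, as it was in 6.21% of the 15916 genes tested. The genes were picked by these opposite calls, so the size of the difference between RC and PC is a description and its p, from the edgeR comparison of RC with PC, is no further evidence. On the log2 scale the difference was 2.23 (-1.73 in PC and 0.50 in RC against CC, adjusted p of the difference 4.4e-10) for HSPD1 and 1.58 (-1.23 in PC and 0.35 in RC against CC, adjusted p of the difference 8.81e-10) for HSP90AB1. It was 1.503 (-0.30 in PC and 1.21 in RC against CC, adjusted p of the difference 4.32e-07) for HSP90AA1 and 1.44 (-0.49 in PC and 0.95 in RC against CC, adjusted p of the difference 3.13e-05) for HSPE1, whose PC calls were lost in 16 and 10 of 19 alternatives. For HSPA4 it was 1.17 (-0.60 in PC and 0.57 in RC against CC, adjusted p of the difference 2.71e-08). In each of the 5 genes all RC libraries were above all PC libraries, 3 of 3. The choice of the genes made this likely, so it is no further evidence either. From PC to RC, 35.7% of all tested genes were called higher. Both changes are measured against the same CC libraries, which cancel in the difference. Groups of 3 are too small for a check of outlying libraries.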

How the results depend on the processing

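Of 950 recomputed log2 fold changes of the 10 genes (50 values, 19 alternatives each), 874 kept their direction and their side of the threshold, 50 lost the call, 16 gained it and 10 changed sign. Not all alternatives could move a value much. Adding copies changed only HSP90AB1 among the 10 genes, by 8 reads. Leaving out a library of a group that was not compared left the log2 fold change nearly as it was. The 874, and each count out of 19, therefore overstate how stable the values are. The genes lower in PC were 5, and 3 with a summed count of at least 2 or with only the groups compared (3 to 5 with a library left out). Those higher beyond 1.5-fold in PC were 1, and 2 with RLE scaling (1 to 3 with a library left out, 3 without CC replicate 3), and in RC 1 (1 to 3, 3 without CC replicate 3). Those lower in PC than in TC were 3 (1 to 4), and those lower in RC than in PC were 2 (1 to 3). With a library left out, values that changed sign ran from -0.050 to 0.050 for HSPA8 between PC and RC, -0.20 to 0.087 for HSPE1 between TC and PC, -0.22 to 0.11 and -0.019 to 0.49 for HSP90AA1 and HSPH1 in TC, -0.13 to 0.076 and -0.17 to 0.045 for STIP1 in TC and PC, -0.11 to 0.011 for AHSA1 in PC, and -0.54 to 0.65 and -0.030 to 0.0066 for DUSP6 and ETV4 in RC. The RC to PC difference of HSPA8, near 0, was -0.0098 with RLE, -0.0098 in DESeq2, -0.00071 and -0.00071 without CC replicate 3 or TC replicate 1, and -0.050 and -0.028 without PC or RC replicate 1. In TC, HSPH1 was -0.019 without CC replicate 1 and HSP90AA1 was 0.11 without CC replicate 2. From TC to PC, HSPE1 was 0.087 and 0.071 without TC replicate 2 or PC replicate 1. Without CC replicate 3, STIP1 was 0.076 in TC and 0.045 in PC, AHSA1 0.011 in PC and DUSP6 0.65 in RC. In RC, ETV4 was 0.013 with library totals and 0.0066 without RC replicate 2. Beyond those fits with fewer samples or more genes tested, the cause was not tested. Same-number correlations were between -0.047 and 0.20, and 2 of 15 were over 0.1. Between PC and TC the same-number values were 0.20, 0.064 and 0.18, and those of different numbers ran from -0.17 to -0.0034. These values are low but do not settle whether replicate numbers pair the libraries. With a replicate block, genes higher and lower in TC were 4 and 4, in PC 4 and 4, and in RC 10 and 0, with HSPE1 gained in TC (-0.43), HSP90AA1 lost in PC (-0.28) and DNAJA1 gained in RC (0.38). With each library left out in turn, the 3 ratios kept the direction of each change against CC and an adjusted p under 0.05 over the 4 groups. With 3 libraries a group, small changes such as those of HSPB1 in RC or HSPA8 between TC and PC lie at the limit of what the test resolves.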

Other observations

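Several other J-domain and small heat shock protein genes of the lists moved strongly, and are named here after their values were seen. DNAJB2 had 44.2 ± 1.32 CPM (CC), 158 ± 7.79 (TC), 156 ± 4.28 (PC) and 32.4 ± 1.83 (RC), as mean and SD of 3 libraries. DNAJB5 had 7.11 ± 2.14, 27.3 ± 0.957, 33.7 ± 1.53 and 10.2 ± 0.345 CPM in the same order. HSPB3 had a count of 0 in all 3 CC libraries and 2.85, 4.58 and 4.19 CPM in PC replicates 1 to 3.

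The count of HSF1 itself was between 0 and 9 in every library, and a numbered copy of its name held 1415, 611 and 131 reads (CC replicates 1 to 3), 98, 65 and 119 (TC), 86, 158 and 1335 (PC) and 278, 175 and 188 (RC). The CC libraries and the PC libraries were far apart among themselves, and no comparison of HSF1 was made.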
